A study of Aspergillus nidulans with 8 samples.

Results

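The quinolone alkaloid run of Aspergillus nidulans is a stretch of neighbouring genes around AN9226, a peptide synthetase gene. The 10 genes described here, AN9224 to AN9227 and AN9230 to AN9235, are 10 of the 11127 genes with probes on the array, and all 10 were found by gene identifier in both kinds of file. They were drawn from a run of neighbours, AN9223 to AN9235, that had been picked on the levels of these same 8 arrays. Their levels and differences are therefore a description, and no test of them is given. The name of the run comes from what is known of AN9226 and AN9227; no metabolite was measured here.

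Aspergillus nidulans is a filamentous fungus that makes many secondary metabolites, each usually from a cluster of neighbouring genes that are switched on together late in growth. Quinolone alkaloids such as the aspoquinolones are built from anthranilate and a methylated tyrosine. A nonribosomal peptide synthetase, a large modular enzyme that links amino acids without a ribosome, joins both into a cyclic dipeptide, and tailoring enzymes then reshape its ring into the quinolone core and attach an isoprenoid side chain. AN9226 (asqK) encodes that synthetase, and AN9227 (asqJ) encodes the iron- and oxoglutarate-dependent dioxygenase that desaturates and epoxidises the cyclic dipeptide. For the other members no role is stated here.

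The 8 samples were mycelium from colonies inoculated at several points on agar plates and kept in darkness. The media are named CYA, CYAs and YES in the labels, which do not spell the names out, and YES is spelled YESs in the sample titles. CYA and CYAs were sampled after 4, 8 and 10 days and YES after 4 and 10 days, with 1 array (1 sample) for each medium and day, without replicates, and no strain or genotype given. Whole colonies were scraped off, so each value mixes all cell types of a colony, and fewer expressing cells cannot be told apart from less RNA per cell. Levels are log2 signals relative to the 75th percentile of the same array, so 0 stands for that percentile and a difference of 1 for a doubling.

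The arrays lay on 2 slides. Slide 1 carried YES days 4 and 10 with CYA days 4 and 8, and slide 2 carried the 3 CYAs arrays with CYA day 10. Signals had a 75th percentile of 1481 to 4976, no spot was saturated, and 10878 to 11114 genes were above background on an array; the number of arrays limits the precision. All 5 hyphal marker genes, among them the actin gene AN6542, were above background on all 8 arrays. The CYAs day 8 array stood apart. Outside the run, 260 genes had a processed signal on CYA day 8 that exceeded the signals of both other CYAs arrays by 16-fold or more, before scaling. For them the CYAs day 8 signal was a median of 0.22 of the CYA day 8 signal, with a 25th to 75th percentile of 0.203 to 0.237. Over the 260 genes the share ran from 0.124 to 0.696. Values of CYAs day 8 are given below with that fact beside them.

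Transcripts of most members were near background on every day 4 array and on CYAs day 10, and well above it on CYA day 8, CYA day 10 and YES day 10. AN9235, and some probes of AN9233, were above background throughout, and AN9230 was high on YES day 10 alone. The median level of the 10 members was -0.55 on CYA day 10, -0.79 on YES day 10 and -1.80 on CYA day 8. It was -3.47 on CYAs day 8 and -5.62 on CYAs day 10. On day 4 it was -7.02 on YES, -7.29 on CYA and -8.00 on CYAs. The SD over the members on an array was 1.57 to 2.17. In this order, only the steps from CYA day 8 to CYAs day 8 and from there to CYAs day 10 exceeded 1.43, the residual SD of the median level once additive effects of medium and day were removed.

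The probes give the same picture in raw signal. Each member had 3 probes, 30 in all. On day 4, 13 of the 30 were well above background on CYAs, 17 on YES and 20 on CYA, and the median signal was between 11.8 and 18.1. All 30 were above background on CYA day 8, CYA day 10 and YES day 10, where the median signal was 1113, 1024 and 3779. On CYAs day 10 all 30 also counted as above background, but at a median signal of 28.1. AN9236, the gene beside the run at the chromosome end, had signals of 22.2 to 48.8 on that array and at most 48.8 on any array.

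**Figure D1:**
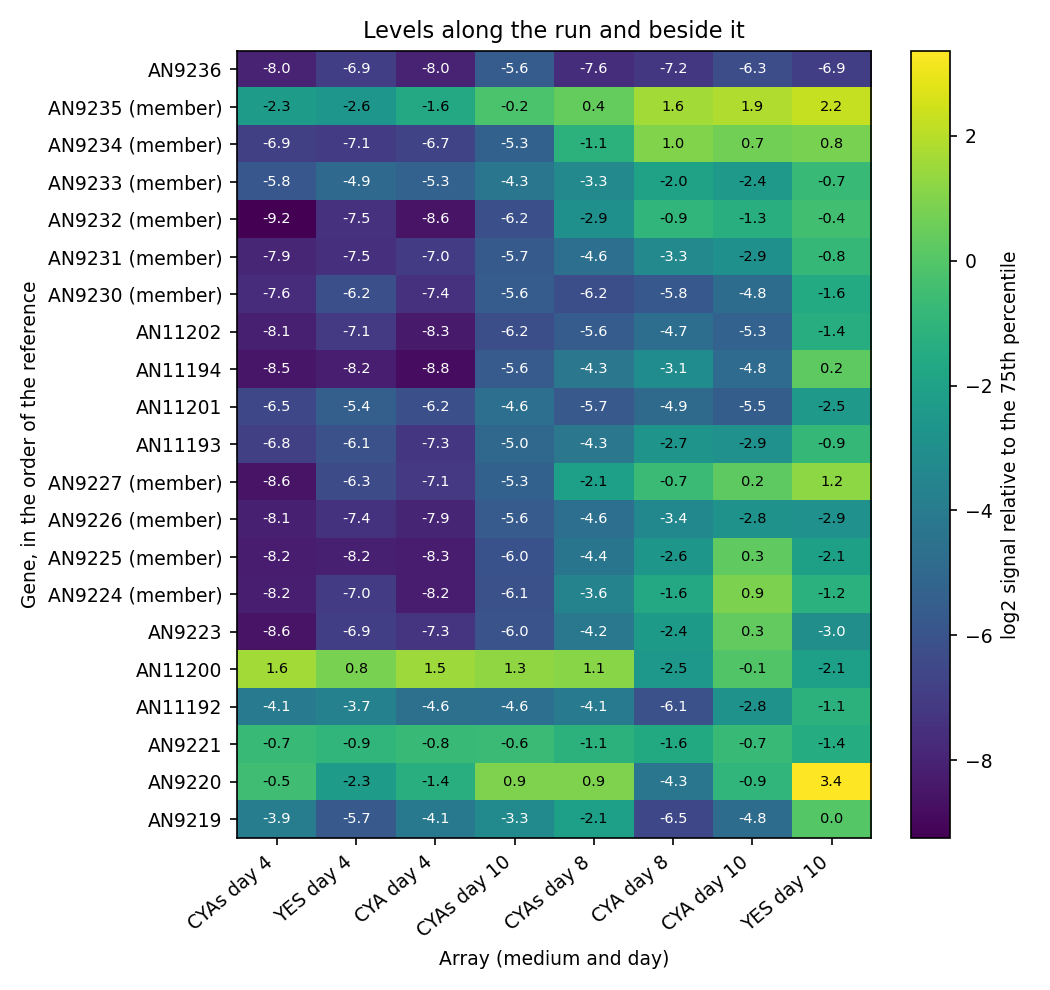
Levels (log2 signal relative to the 75th percentile of the array, colour and printed number) of the 10 members, the 5 other genes of the run and the 6 genes beside it, in the order of the reference, on the 8 arrays. The median of the members is -5.62 or lower on the 3 day 4 arrays and CYAs day 10 and -1.80 or higher on CYA day 8, CYA day 10 and YES day 10; AN9230 stays at -4.78 or lower except on YES day 10.

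AN9226, the synthetase gene, stood at -8.13 on CYAs day 4, -7.41 on YES day 4 and -7.93 on CYA day 4. On the later CYAs arrays it was at -4.63 (day 8) and -5.64 (day 10). It reached -3.36 on CYA day 8, -2.76 on CYA day 10 and -2.89 on YES day 10. The 3 high arrays thus lay close together, and no other array overlapped them. AN9227, the dioxygenase gene next to it, stood at -8.57, -6.30 and -7.15 on day 4 of CYAs, YES and CYA. It was at -2.11 on CYAs day 8 and -5.31 on CYAs day 10. On CYA days 8 and 10 and YES day 10 it reached -0.66, 0.24 and 1.24, again above all other arrays.

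The probes of AN9226 differed in how far they moved. The probe named 7971 to 8030 gave a signal of 16.5 on CYA day 4 and 943 on CYA day 8. The probe named 6438 to 6497 gave 7.33 and 48.8, and its highest signal was 99.7, on YES day 10. The probe mean of AN9226 therefore moved less than its strongest probe. For AN9227 all 3 probes rose together, from 15.1 to 26.3 on CYA day 4 to between 1189 and 4408 on CYA day 8.

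**Figure D2:**
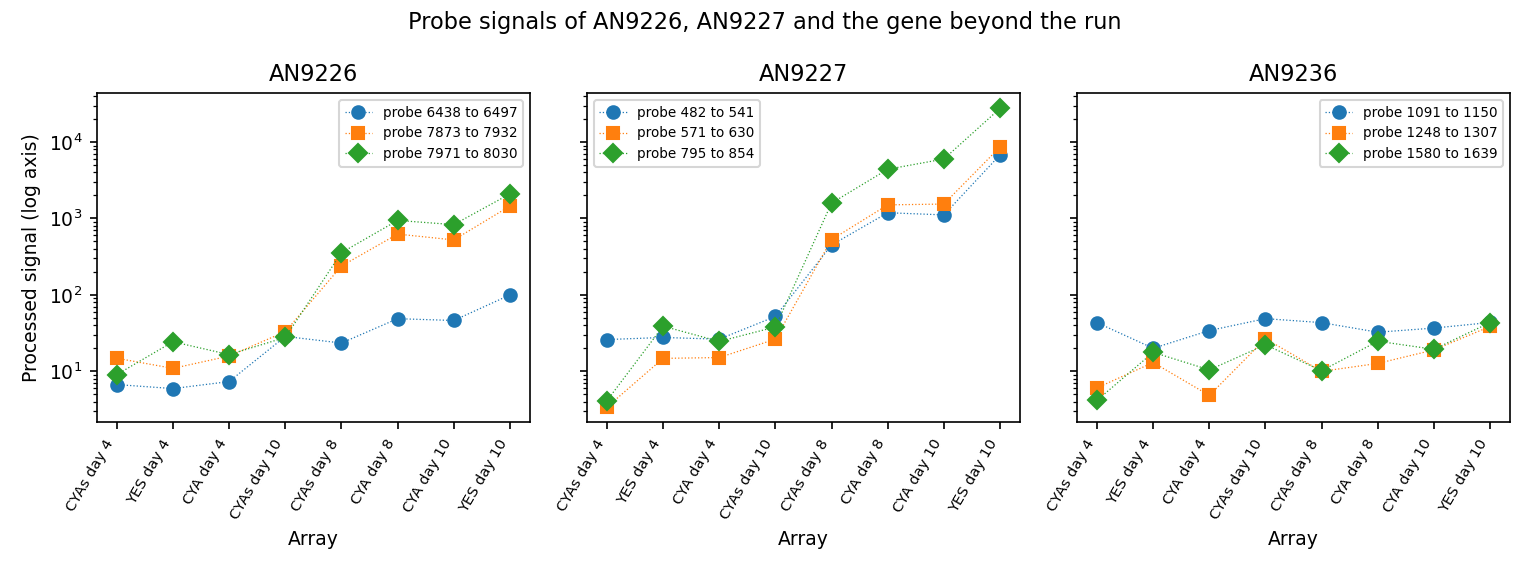
Processed signal (log axis) of each of the 3 probes of AN9226, AN9227 and AN9236 on the 8 arrays; dotted lines only join the points of 1 probe. AN9236, beyond the run, keeps a signal of at most 48.8, while the probes of AN9227 reach 6788 to 27576 on YES day 10.

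With age on CYA the members rose together. Folds are given here with every probe that was not well above background set to the lowest signal that was (7.52 to 14.3, by array), so that dim probes do not inflate them; level differences and the counts of members at least 4-fold apart use the values as measured. From day 4 to day 8, both on slide 1, the median level difference was 5.13 (SD over members 2.06), and 9 of 10 members were at least 4-fold higher, against 7.71% of all tested genes. AN9234 was 198-fold and AN9227 89.6-fold higher. AN9232, with no probe above background on CYA day 4, was at least 135-fold higher. AN9226 was 20.3-fold higher, and AN9230, the exception, 2.30-fold. From day 4 to day 10, on different slides, the median difference was 6.20 (SD 2.42), and all 10 were at least 4-fold higher against 4.09% of all genes. AN9224 and AN9225 then differed by 447-fold and 276-fold. These shares describe genes picked on these arrays, and nothing is read from them.

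On YES the rise from day 4 to day 10, within slide 1, had a median of 5.95 (SD 1.34), and 10 of 10 members were at least 4-fold higher against 7.15% of all genes. AN9227 was 185-fold higher, AN9234 151-fold and AN9232 92.6-fold, and AN9226 differed by 4.52 on the log2 scale. AN9230, which moved least on CYA, was 20.4-fold higher on YES. YES day 8 was not sampled, so the timing on this medium is not resolved.

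On CYAs, 9 of 10 members were higher on day 8 than on day 10, and all 10 higher than on day 4. Day 8 is the array on which the 260 genes outside the run stood at a median of 0.22 of their CYA day 8 signal. Whether it holds RNA of another sample was not tested. From day 4 to day 8, within slide 2, the median difference was 3.68 (SD 1.72), with 9 of 10 members at least 4-fold higher against 3.77% of all genes. With dim probes at the lowest measured signal the median was 3.05 and the count 8. The count was 3 with normexp, a model-based background correction, and quantile normalization and 4 in the authors' deposited values. From day 8 to day 10 the median difference was -1.36 (SD 1.48), with 4 members at least 4-fold lower against 2.64% of all genes. AN9234 fell by 4.16 on the log2 scale, and AN9230 differed by 0.65. Between days 4 and 10 of CYAs, 8 members were at least 4-fold higher against 9.83% of all genes. With dim probes at the lowest measured signal 3 were (AN9226, AN9227 and AN9235), and 0 were with normexp or in the authors' values, where the median difference was 0.10 and 0.18. AN9236 moved from -8.04 to -5.59 between the same arrays. The CYAs day 10 difference is therefore one between signals close to background.

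The CYAs day 8 values were compared with CYA day 8, which lies on the other slide. The median difference was -1.39 (SD 0.49), all 10 members were lower, and 1 (AN9234) was at least 4-fold lower against 2.57% of all genes. In signal, the share of the CYA day 8 value was 0.228 for AN9234, 0.249 for AN9224 and 0.255 for AN9232. It was 0.411 for AN9226, 0.421 for AN9235 and 0.714 for AN9230, and the median over members was 0.378. The smallest share, that of AN9234, lay within the 0.203 to 0.237 found over other genes, with AN9224 and AN9232 just above it. AN9225 and AN9227 had shares of 0.283 and 0.363. The 16-fold rule on signals used there was met by these 5 members. With the rule on levels, added after seeing the data, 4 members met it, and the median share over 176 other genes was 0.214. Whether that share bears on the CYAs day 8 level of the run was not tested. Without CYAs day 8 the members on CYAs rest on days 4 and 10 alone, which are both near background.

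**Figure D3:**
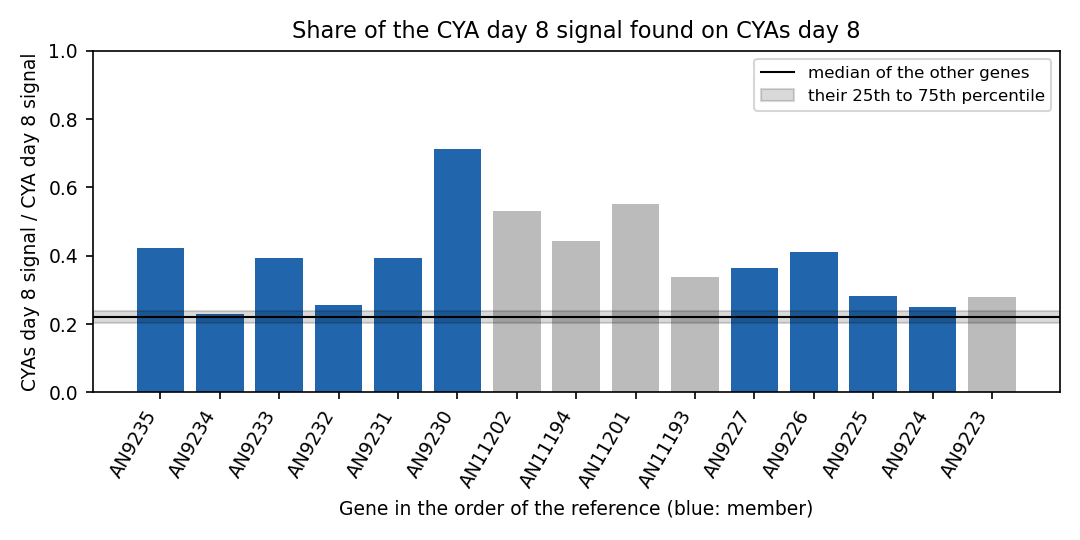
Signal on CYAs day 8 as a share of the signal on CYA day 8 for each gene of the run (bars, blue for members), with the median (0.22, line) and the 25th to 75th percentile (band) of 260 genes outside the run. AN9234, AN9232 and AN9224 sit close to the line and AN9230 far above it.

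At day 10 the media differed most. CYAs and CYA of that day share slide 2, and every probe of the members counted as above background on both. On CYAs day 10, however, the median probe signal of the members was 28.1. The AN9224 probes gave 11.4 to 31.2 there, against 22.2 to 48.8 for AN9236 beside the run. For most members, folds against CYAs day 10 thus rest on signals close to background. The median difference was -3.85 (SD 2.18), all 10 members were lower on CYAs, and 8 were at least 4-fold lower against 2% of all genes. With normexp the median difference was -2.998 and the count 7, and in the authors' values they were -3.88 and 7. AN9224 was 130-fold lower on CYAs, AN9225 81.2-fold, AN9234 62.9-fold, AN9227 46.9-fold and AN9226 7.37-fold. The exceptions were AN9233 at 3.63-fold and AN9230 at 1.76-fold. YES day 10 was higher than CYAs day 10 by a median of 4.42 (SD 1.39), with all 10 members at least 4-fold higher against 6.27% of all genes, on different slides. On day 4 the median difference was -0.38 for CYAs minus CYA and 0.45 for YES minus CYA, with 10 to 17 of the 30 probes below background on those arrays. Between YES and CYAs on day 4, AN9227 alone passed 4-fold (2.27 on the log2 scale), against 3.6% of all genes. It had 1 of 3 probes above background on CYAs, and with dim probes at the lowest measured signal the difference was 2.11-fold.

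The additive fit over all 8 arrays (limma, with medium and day as factors) gave medians over the members of -2.07 for CYAs minus CYA, 0.55 for YES minus CYA and 2.62 for YES minus CYAs. For day 8 and day 10 against day 4 they were 4.53 and 4.96. The median over all tested genes lay between -0.11 and 0.13 in these contrasts, and the standard errors of the members were 0.51 to 1.54. For AN9226 the fitted differences were -1.45 (SE 0.54), 0.24 (SE 0.64), 1.69 (SE 0.64), 4.15 (SE 0.64) and 4.06 (SE 0.54) in the same order. The fit takes a medium difference as equal on all days, whereas CYAs minus CYA measured -0.38, -1.39 and -3.85 on days 4, 8 and 10. With 1 array per medium and day that interaction could not be tested. Adding slide to the fit moved the median of YES minus CYAs to 4.37. Without CYAs day 10 it was 1.11, and that of CYAs minus CYA was -0.90. The median of YES minus CYA was -0.19 without YES day 10 and 1.88 without YES day 4, so its sign rests on single arrays.

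YES day 10 and CYA day 10 were both high, but not for the same genes. Across the members the difference YES minus CYA on day 10 ran from -2.35 to 3.21, with a median of 0.64. AN9230 and AN9231 were at least 4-fold higher on YES (9.28-fold and 4.22-fold, against 6.49% of all genes), and AN9224 and AN9225 at least 4-fold lower (4.18-fold and 5.12-fold, against 5.25%). AN9226 and AN9234 differed by -0.13 and 0.18. With normexp each count was 1 in place of 2, and these arrays lie on different slides.

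The difference varied along the run. In the reference order from the chromosome end, YES minus CYA on day 10 was 0.38 at AN9235, 0.18 at AN9234, 1.68 at AN9233, 0.90 at AN9232, 2.08 at AN9231 and 3.21 at AN9230. Beyond it come 4 genes that are not among the members and whose identifiers break the numbering. AN11202, AN11194, AN11201 and AN11193 differed by 3.87, 5.06, 3.01 and 2.01. Then the values fell again, to 0.995 at AN9227, -0.13 at AN9226, -2.35 at AN9225, -2.06 at AN9224 and -3.35 at AN9223. The middle of the run was thus relatively higher on YES and its inner end relatively higher on CYA day 10.

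Against CYA day 8, on the same slide as YES day 10, AN9230 and AN9231 were at least 4-fold higher, against 1.62% of all genes. AN9230 differed by 4.20, AN9231 by 2.44, AN11202 by 3.28, AN11194 by 3.35 and AN11201 by 2.40. At the inner end AN9226, AN9225 and AN9224 differed by 0.47, 0.50 and 0.45, and AN9223 by -0.65. Both comparisons use the YES day 10 array, so they are not independent. On CYA itself 2 members were at least 4-fold higher on day 10 than on day 8, against 2.69% of all genes. They were AN9225 and AN9224, by 2.86 and 2.51, and their neighbour AN9223 differed by 2.69, while AN9234, AN9233 and AN9232 differed by -0.30, -0.44 and -0.40. That pair lies on different slides, and the reason for the pattern was not tested.

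**Figure D4:**
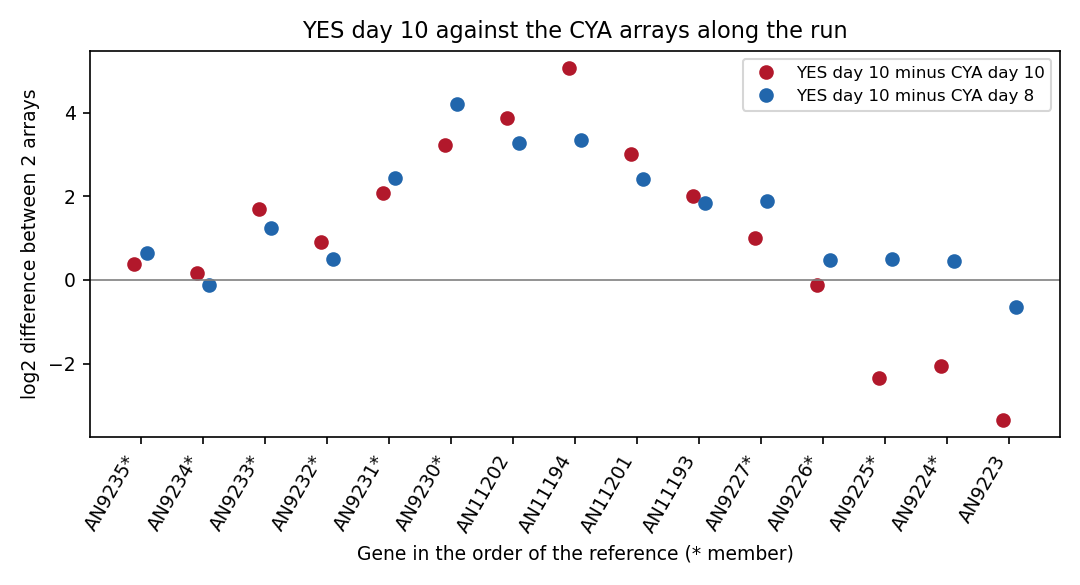
Difference in level (log2) of YES day 10 from CYA day 10 (red) and from CYA day 8 (blue) for the 15 genes of the run in the order of the reference; each point is the difference between 2 single arrays, and both series share the YES day 10 array. The difference from CYA day 10 peaks at AN11194 (5.06) and that from CYA day 8 at AN9230 (4.20), and both are lowest at AN9223 (-3.35 and -0.65).

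Counted by position rather than by identifier, the run held 15 genes, the 10 members and 5 others, all with probes. Among these others AN11193 had a Pearson correlation of 0.97 with the mean of the members over the 8 arrays, AN9223 0.93, AN11194 0.91, AN11202 0.89 and AN11201 0.66. AN11194 stood at -8.50, -8.20 and -8.83 on day 4 of CYAs, YES and CYA. It was at -4.27 and -5.61 on CYAs days 8 and 10 and at -3.11 and -4.82 on CYA days 8 and 10, and it reached 0.24 on YES day 10. The YES day 10 array was alone in being high for this gene. AN9223 was highest on CYA day 10, at 0.31, with -2.38 on CYA day 8 and -3.03 on YES day 10.

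The genes beside the run did not share its pattern. AN9236, the only gene listed between AN9235 and the chromosome end, correlated at 0.38 and stayed between -8.04 and -5.59. On the inner side AN11200 had the opposite pattern (r = -0.80), from 1.62 on CYAs day 4 to -2.51 on CYA day 8. AN9221 varied over a range of 0.96 only (r = -0.60). AN11192, AN9220 and AN9219 correlated at 0.38, 0.23 and 0.28. AN9220 and AN9219 were highest on YES day 10, at 3.36 and 0.03, yet at their lowest on CYA day 8, at -4.30 and -6.51, where the members were high.

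Within the members the levels over the 8 arrays correlated at a mean pairwise r of 0.917, from 0.676 for AN9230 with AN9234 to 0.992 for AN9224 with AN9225. The arrays share slides and days, and the run was picked on these same levels, so this likeness is a description only. AN9230 was the least alike, at 0.77 with the mean of the other members. It stayed between -7.62 and -4.78 on 7 arrays and reached -1.56 on YES day 10 alone. AN9231 showed a milder form, with -3.29 and -2.92 on CYA days 8 and 10 and -0.85 on YES day 10. The highest array was YES day 10 for 6 members, CYA day 10 for 3 and CYA day 8 for AN9234.

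For AN9235 and AN9233, which had the smallest ranges of the members over the arrays, the probes disagreed. The AN9235 probe named 412 to 471 gave signals of 34.9, 29.6 and 66.1 on day 4 of CYAs, YES and CYA and 93.0 on CYAs day 10. On CYA day 8 and YES day 10 it gave 9139 and 23039. The probe named 301 to 360 gave 1348, 618 and 2383 on day 4 and 5535 and 12554 on those late arrays. From YES day 4 to YES day 10 these probes rose 779-fold and 20.3-fold, and the probe named 513 to 572 rose 26.4-fold. For AN9233 the probe named 651 to 710 gave 2.60, 7.31 and 9.74 on day 4 and 10914 on YES day 10, whereas that named 237 to 296 gave 311, 368 and 380 and then 1980. The probe mean of each gene thus blends a probe that behaved like AN9234 with probes whose day 4 signal was well above background. Which transcripts the latter detected was not tested.

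**Figure D5:**
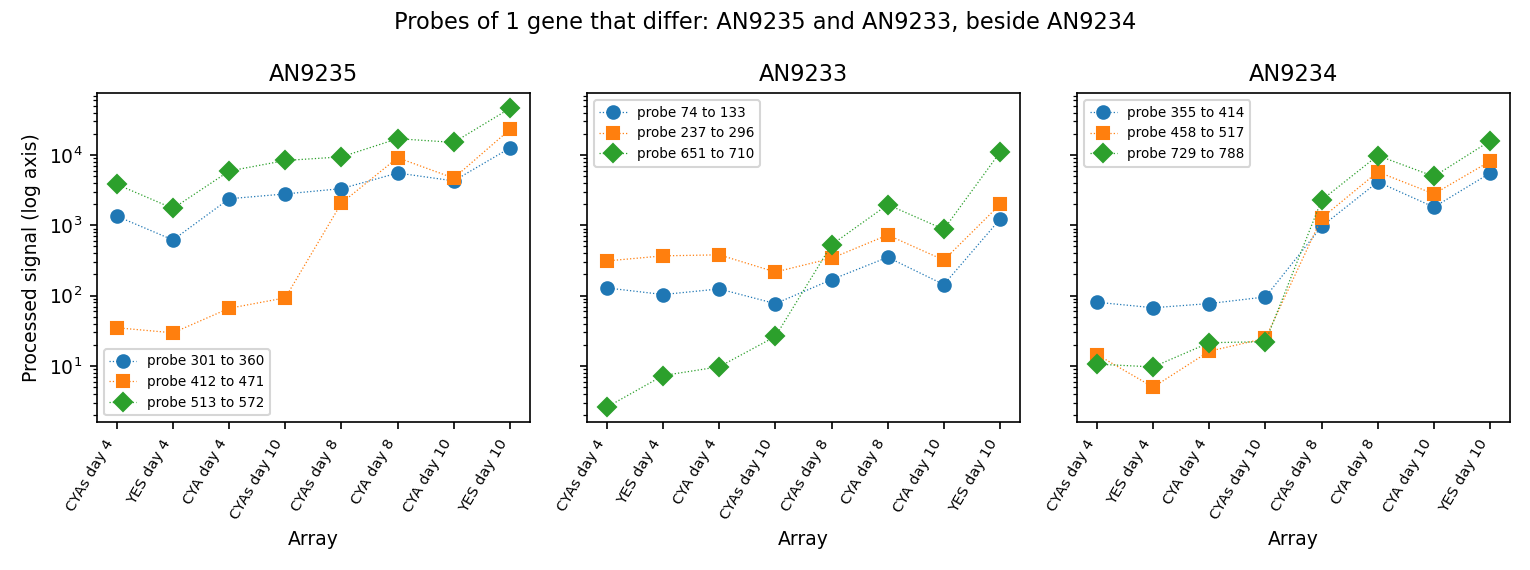
Processed signal (log axis) of each probe of AN9235, AN9233 and AN9234 on the 8 arrays; dotted lines only join the points of 1 probe. The AN9235 probe 412 to 471 and the AN9233 probe 651 to 710 rise as the AN9234 probes do, while the other probes of AN9235 and AN9233 start far higher on day 4.

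Some markers of conidia, the asexual spores, were low where the run was high. Relative signals of the 7 conidial genes were summed before log2 was taken, so the brightest genes set the sum. The log2 of the sum was 0.18, 0.30 and 0.21 on YES day 10, CYA day 8 and CYA day 10. It was 3.27 to 5.44 on the other 5 arrays. The hydrophobin gene rodA (AN8803), which coats the spore, stood at -3.41, -3.17 and -4.25 on those 3 arrays and at 2.00 to 4.51 on the others. The hydrophobin gene dewA (AN8006) and pksP (AN8209) had the same split, and these 3 genes carried the sum. The regulator gene abaA (AN0422) did not, with -5.34 on CYA day 4 and -4.31, -4.78 and -4.48 on YES day 10, CYA day 8 and CYA day 10. Nor did the regulator gene brlA (AN0973), at -3.20 on YES day 10 and -3.45 on CYAs day 8. The laccase gene yA (AN6635) was at -3.65 on CYA day 4 and -2.69 on CYA day 8. For 4 fruiting body and Hülle cell markers the log2 of the sum was 6.63 and 6.82 on CYA days 8 and 10. On YES day 10 it was 3.05, within the 2.53 to 5.04 of the other arrays. The sums on CYA were mostly AN7349, at 6.52 and 6.69, which stood at -5.41 on YES day 4 and 0.52 on YES day 10. The regulator gene nsdD (AN3152) was at 0.15 on CYA day 8 and at 1.14 to 1.63 on the other CYA and CYAs arrays. No marker was below background on any array. The part of these cell types in the run's levels was not tested.

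Genes with a profile like that of the members were found across the genome. Over 8 arrays and 2385 genes outside the run with an SD of at least 1, the closest to the members' mean were AN7958 (r = 0.995), AN2708 (0.977), AN5348 (0.977), AN1785 (0.976) and AN1257 (0.974), none of which carries a gene symbol in the reference. AN7958 stood between -7.44 and -6.49 on day 4, at -0.99 and -4.97 on CYAs days 8 and 10, and at 0.94, 2.27 and 2.39 on CYA day 8, CYA day 10 and YES day 10. In all 27 of these genes reached 0.95, and 376 were at least as alike as AN9230, the least alike member. The r of AN9230 used there was with the mean of all 10 members, itself included, not the 0.77 given above.

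Genes of pathways that make or use up building blocks of the alkaloid were examined in the same fit. It called at most 1 gene in any contrast. Of 37 symbols in the first lists, 9 matched a gene on the array, and all 8 genes of an isoprenoid precursor list did. The 9 were 5 of 17 for chorismate, anthranilate and aromatic amino acid synthesis and 3 of 6 for phenylalanine and tyrosine breakdown. For S-adenosylmethionine synthesis 1 of 14 matched, the sulfate assimilation gene sC. Most symbols of the first lists were thus not examined. Limma (Benjamini-Hochberg adjusted p under 0.05 over 11109 genes) called 0 of these 17 in each of the 5 contrasts, where at most 0.009% of all genes were called in either direction. As no test of the members is given, this count does not set these pathway genes apart from the run. Unadjusted limma p was under 0.05 for 6 of the 17 between CYAs and CYA, against 976 of the 11109 tested genes. Between YES and CYA it was so for 1 (against 829), and between YES and CYAs for 1 (against 1599). The count was 2 between days 8 and 4 (against 1725) and 8 between days 10 and 4 (against 2473).

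Among these genes trpC (AN0648), of tryptophan synthesis, differed by -0.30 (SE 0.23) between CYAs and CYA, trpB (AN6231) by 0.21 (SE 0.27) and AN6866, listed as the chorismate mutase gene aroC, by -0.23 (SE 0.31). The homogentisate dioxygenase gene hmgA (AN1897), of tyrosine breakdown, differed by -1.48 (SE 0.41, limma adjusted p = 0.397), fahA (AN1896) by -0.83 (SE 0.38) and maiA (AN1895) by -0.81 (SE 0.49). The sulfate assimilation gene sC (AN4769) differed by 0.78 (SE 0.23). Of the isoprenoid genes erg20 (AN8012), erg13 (AN4923) and erg8 (AN2311) differed by 1.28 (SE 0.36), 1.12 (SE 0.43) and 0.72 (SE 0.26), the opposite sign to the members. The 8 genes of that list ran from -0.65 to 1.28, so not all had the opposite sign. The breakdown genes above had the sign of the members. Between days 10 and 4 all 8 isoprenoid genes lay lower, by a median of -0.91, while the members lay higher. The 3 breakdown genes also lay higher in that contrast, by 0.91 to 1.44.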

How the data were processed

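Spot intensity values (processed, median and local background signal) were produced with Agilent Feature Extraction 10.5.1.1, per the file headers, from 1-colour Cy3 arrays. The log2 values, 1 per gene and array, were deposited by the authors; limma and RMA appear in the submitters' processing notes without version or role, and no source used here states how they were normalized. Samples were grouped by medium and day from the labels. The 10 genes, the lists and the tests were chosen with earlier results of these data known, and the isoprenoid list was added after the files were seen.

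From the 32793 gene probes, 0 to 19 spots per array with outlier flags were dropped, log2 of the processed signal was taken relative to the array's 75th percentile, and probes of a gene were averaged. Genes with at least 1 probe above background on at least 2 arrays were tested (11109). All 10 members passed this filter, but no test of them is given. Limma 3.58.1 in R 4.3.3 fitted medium and day as additive factors over 8 arrays, with 3 residual degrees of freedom. On simulated data for CYAs against CYA (11109 genes, 200 changed) it recovered 31% of log2 changes of 2, 77.5% of 4 and 88% of 6. At changes of 4 and of 6 it also called 9 unchanged genes each. The simulation had independent noise, a change equal on all days and no slide effect, so these rates do not measure recovery on the real arrays. No label says whether cultures were replicated. With 1 array per medium and day, p-values and standard errors rest on the departure of these samples from additive effects of medium and day. That departure mixes noise with slide effects and with any change of a medium difference over days.

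Named genes were the members, the other genes of the run, up to 5 genes on each side in the reference order (assembly ASM1142v1, used for names and order only; 1 exists on the outer side), the 5 most alike genes and, as no list gene was called, the 3 of each list with the largest difference between CYAs and CYA. Alternatives were another background correction and normalization, the deposited log2 values, another scale, the probe median, a filter on dim probes, slide as a block, and leaving out each array.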

Additional observations from a re-analysis of the deposited data

Results flagged for a closer look

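Single-array differences of opposite sign, each of at least 1 on the log2 scale, were found for 2 members, and none of these contrasts between groups was tested. From day 8 to day 10 AN9224 differed by 2.51 on CYA and by -2.52 on CYAs, and AN9225 by 2.86 on CYA and by -1.68 on CYAs. The CYA pair spans both slides, and the CYAs pair includes the day 8 array that stood apart. AN9224 also differed between YES and CYA by 1.24 on day 4 and by -2.06 on day 10, where both day 4 values lay near background.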

How the results depend on the processing

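With each array's median as the scale, the median level of the members was -5.99, -1.60 and -3.70 on CYAs days 4, 8 and 10, -5.12 and 1.06 on YES days 4 and 10, and -5.41, 0.060 and 1.48 on CYA days 4, 8 and 10. The day 4 levels on CYAs, YES and CYA were -4.67, -4.55 and -4.62 with normexp and quantile normalization and -5.05, -4.98 and -5.03 in the authors' deposited values. The median changes with day were smaller with both, at 2.67 and 3.09 for CYA day 8, 3.36 and 4.15 for CYA day 10, 3.71 and 4.02 for YES day 10, 1.56 and 1.61 for CYAs day 8, and 0.10 and 0.18 for CYAs day 10, each against day 4. The mean pairwise correlation was 0.90 with probe medians, 0.88 with normexp and 0.85 in the authors' values.

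The fitted medians were 2.35 and 2.51 for day 8 and 2.75 and 2.91 for day 10 against day 4 with normexp and the authors' values, and those of AN9226 were 1.79 and 2.52 and then 1.69 and 2.39. With probe medians AN9226 gave 5.14 for day 8. Slide as a block gave 4.37 for YES minus CYAs, and for AN9226 3.25 there and -2.41 for CYAs minus CYA. Within slide 2, CYAs minus CYA was -3.85 and day 10 minus day 4 was 2.12. The counts of members at least 4-fold apart were examined under alternatives chosen after seeing the data. They were 3 (normexp) and 4 (the authors' values) for CYAs day 8 against day 4. For CYAs day 10 against day 4 they were 5 (median scale), 3 (dim probes at the lowest measured signal), 0 (normexp) and 0 (the authors' values). For YES day 10 above CYA day 10 the count was 1 with the median scale, normexp and the authors' values, and below it 1 with normexp.

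Leaving out each array gave a correlation of 0.90 to 0.93. The fitted medians ranged from -2.95 to -0.90 (CYAs minus CYA), -0.19 to 1.88 (YES minus CYA), 1.11 to 3.55 (YES minus CYAs), 3.898 to 5.72 (day 8) and 4.14 to 6.09 (day 10). Those of AN9226 ranged from -2.04 to -0.79, -0.27 to 0.84, 0.86 to 2.43, 3.64 to 4.89 and 3.58 to 4.72. None of the 9 matched genes of the first lists was called by limma under any setting run on all 8 arrays. The causes were not tested. No paired analysis was possible because the labels give no replicate numbers; arrays of 1 day were matched across media only through day as a factor. Requiring every probe above background on every array left 1 member, AN9235, so no median was made under it. Signals near background limit the day 4 and CYAs day 10 values.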
